A study of Mus musculus with 6 samples.

Results

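Heat shock and endoplasmic reticulum (ER) chaperone genes were examined in mouse liver with a conditional Keap1 knockout and in control liver. The 36 genes were chosen by name and grouped into 4 compartments. There were 11 cytosolic heat shock genes, 3 mitochondrial chaperones, 16 ER folding factors, and 6 genes of ER-associated degradation (ERAD) and of sensing unfolded protein. A gene was read from the probe set with the highest mean log2 signal among those annotated to that symbol alone. This gave a value for 34 of the 36, out of 18193 genes with such a probe set, and all 34 passed the filter on dim probe sets. The remaining members, Hsp90ab1 and Hsf1, were not analysed here.

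Each group held 3 male mice aged 9 weeks, with 1 mouse on each single-colour array of liver RNA. The knockouts carried Alb-Cre, a Cre recombinase driven by the hepatocyte albumin promoter, with Keap1(flox/-), a floxed allele opposite a null one. The controls carried the same Alb-Cre with Keap1(flox/+), so that where Cre acted they kept 1 wild-type allele. All had received vehicle only, made of 10% DMSO, 10% Cremophor-EL and 80% PBS. In Keap1 itself the signals were 326, 151 and 214 in knockouts 3, 4 and 5 and 786, 843 and 699.8 in controls 1, 2 and 3, a log2 difference of -1.74 (limma adjusted p = 0.0118). The position of that probe set relative to the deletion was not analysed here. Of 8 genes activated by the transcription factor NRF2, which KEAP1 holds in check, 6 rose. The summed signal of 7 hepatocyte markers, of which 6 were above the controls and Ass1 was at -0.50, was 151574 to 167254 in the knockouts and 131399 to 148313 in the controls. Most of that sum came from Apoa1, Ttr, Cps1 and Alb, each with a mean log2 signal above 14. Of all 183 genes with a mean of 14 or more, 86.9% were above the controls. The part of the hepatocyte marker difference in the results on chaperones was not tested, and in whole tissue fewer cells of a type cannot be told apart from less RNA per cell.

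Cells fold proteins with separate sets of chaperones. In the cytosol, HSP70 and HSP90 proteins work with J-domain co-chaperones, and the transcription factor HSF1 raises their genes through heat shock elements in promoters. In the ER, the HSP70 protein BiP, the HSP90 protein GRP94, the lectins calnexin and calreticulin and the protein disulfide isomerases fold secreted proteins, of which hepatocytes make large amounts. When unfolded protein builds up there, the sensors IRE1 and ATF6 raise these genes, through the spliced form of XBP1 and through ER stress response elements.

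In Keap1 knockout liver 1 of the 34 measured chaperone genes passed the test, the ER co-chaperone gene Dnajb9, which rose 1.72-fold. None of the 34 fell. The share past the threshold was 2.94%, against 1.98% of all 13027 genes tested (258 genes; limma, Benjamini-Hochberg adjusted p under 0.05), so the count of 1 is near the background. Of all genes 1.04% rose and 0.944% fell. At an unadjusted p under 0.05 there were 6 members, or 17.6%, against 15.2% of all genes. The 3 knockouts and the 3 controls did not overlap in 8 members, or 23.5%, against 21.3% of all genes. Of these, 6 were higher in the knockouts, Dnajb9, Manf, P4hb, Hsp90b1, Hspa4 and Edem1, and 2 were lower, Pdia4 and Dnajb11, where 10.3% of all genes were higher and 10.9% lower without overlap. The mean of the knockouts was above that of the controls in 23 members, or 67.6%, against 47.2% of all genes, a count that was 13 after scaling on the hybridisation controls (38.2% against 23.6% of all genes), 17 after quantile normalization (50% against 51.3%) and 29 after median centring (85.3% against 62.3%). The shares of all genes do not allow for brightness. No member had a mean log2 signal under 10, where 8981 of the 13027 genes lay. Of those dimmer genes 1.26% passed the threshold, 18.2% did not overlap and 43% were above the controls. In ranges from 10 up, holding all 34 members, 0.546% to 5.07% passed, 25.5% to 39.3% did not overlap and 50% to 86.9% were above.

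The size of most differences was limited to a narrow range. In 32 of the 34 members the 95% interval of the log2 difference lay within 1 of zero on both sides, that is, within a 2-fold change. The exceptions were Dnajb9, whose interval ran from 0.42 to 1.15, and Hsph1, whose interval ran from -0.20 to 1.02. The median standard error of the members was 0.11 on the log2 scale, against 0.17 over all genes tested.

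**Figure D1:**
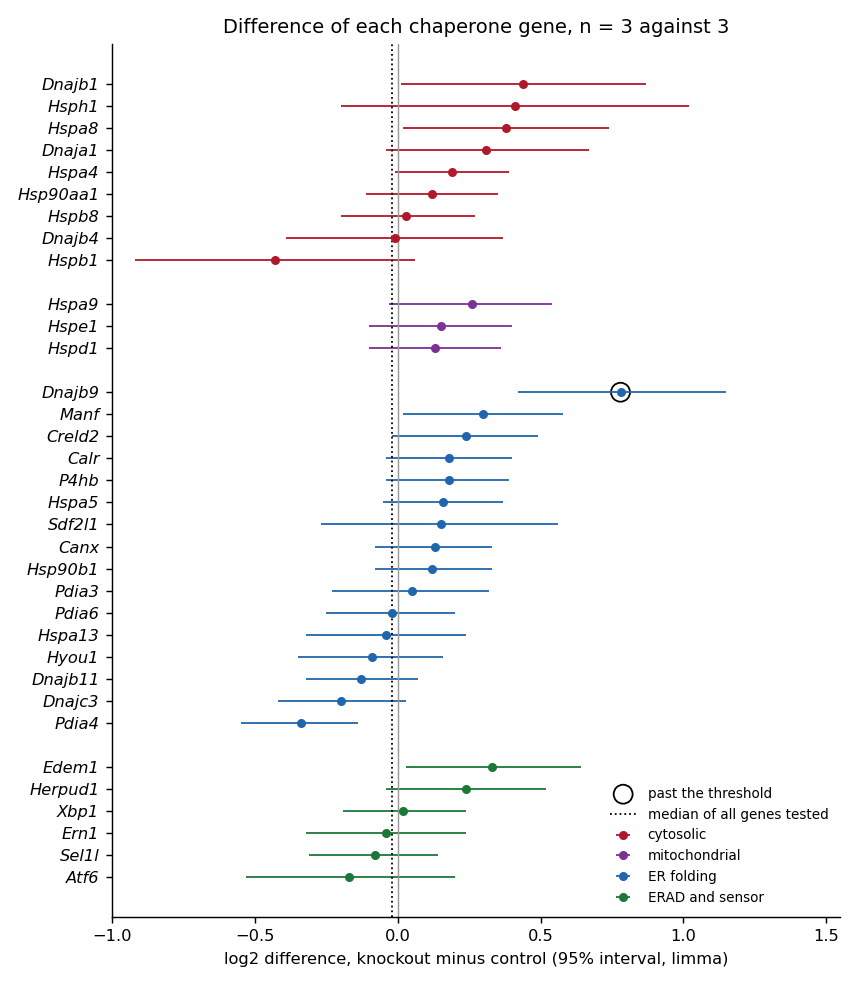
Log2 difference (knockout minus control, on log2(signal + 16)) of the 34 measured chaperone genes on the x axis, with the 95% interval from limma, 3 mice against 3; colours mark the compartment and the dotted line the median of all genes tested, -0.02. Dnajb9, circled, stands at 0.78 and is the one gene past the threshold.

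The rank of the cytosolic median depended on the setting and on which arrays were used. The median log2 difference was 0.19 over 9 cytosolic, 0.15 over 3 mitochondrial, 0.12 over 16 ER folding and -0.01 over 6 ERAD and sensor genes, against -0.02 over all genes tested. After scaling on the hybridisation controls these medians were 0.02, -0.01, -0.04 and -0.17, a setting that moved the median of all genes to -0.18, and after quantile normalization they were 0.16, 0.05, -0.02 and -0.08. Without control 1 the cytosolic median was 0.07, below the 0.12 of the mitochondrial and of the ER folding genes. The mitochondrial median was above the cytosolic also in the mean over probe sets (0.21 against 0.16), without _x_at and _s_at probe sets (0.26 against 0.19), without knockout 5 (0.24 against 0.19) and without control 2 (0.21 against 0.18). No test of the difference between compartments was made.

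The members' differences were set beside those of all genes of like brightness. This comparison was chosen after the values were seen and made only on the scaling as deposited. Of the 183 genes with a mean log2 signal of 14 or more, 86.9% were above the control mean, with a median difference of 0.16 and 0.546% past the threshold. The 7 chaperone genes in that range, Calr, Hsp90aa1, Hsp90b1, Hspa5, Hspa8, Hspd1 and P4hb, had a median of 0.16 too and lay between 0.12 and 0.38. In the range from 13 to 14 the 11 members had a median of 0.24 against 0.08 for all 335 genes. Past the threshold there were 5.07% of the genes in that range, and Dnajb9 of the members. Of the 11 members 10 were above the controls, where 68.1% of all genes in the range were. In the range from 12 to 13 the 4 members had a median of -0.05 against 0.06 for all 624 genes. Of these members 1 was above the controls, where 63% of all genes in the range were. In the range from 11 to 12 the 10 members had a median of -0.02 against 0.03 for all 1080 genes. From 10 to 11 the 2 members had a median of 0.14 against 0 for all 1824 genes. In each range from 10 to 13, between 3.29% and 3.98% of all genes passed the threshold.

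**Figure D2:**
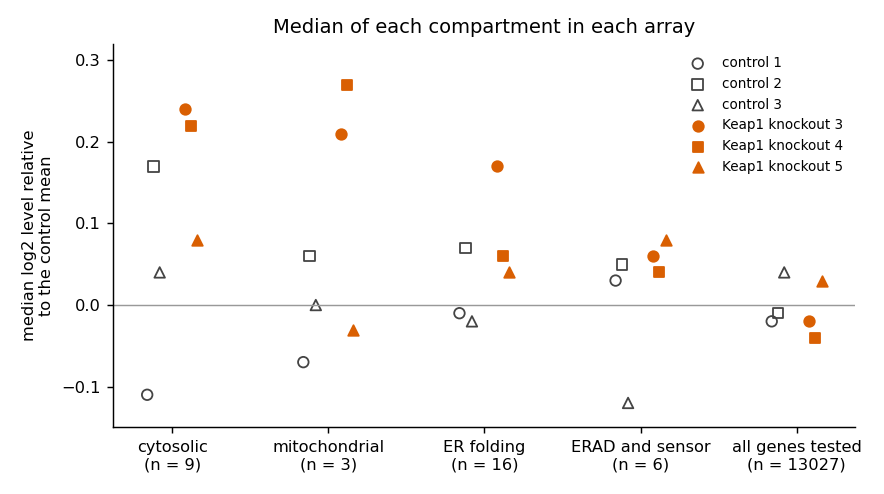
Median over the measured genes of each compartment of log2(signal + 16) relative to each gene's control mean (y axis), for each of the 6 arrays; n is the number of genes. The cytosolic median runs from -0.11 in control 1 to 0.24 in knockout 3, and control 2, at 0.17, lies above knockout 5, at 0.08.

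Among the ER folding genes, 1 of 16 rose, none fell and 15 did not pass the test. Dnajb9, also called ERdj4, is a J-domain co-chaperone of BiP that helps in ER-associated degradation and is a target of XBP1. Its signals were 10782, 11056 and 12460 in knockouts 3, 4 and 5 and 5073, 7279 and 7836 in controls 1, 2 and 3. Every knockout was above every control, and control 1 was the lowest of the 6 arrays. The mean was 11432 ± 900.0 against 6730 ± 1461 (SD, n = 3 each), which is 0.78 on the log2 scale (standard error 0.16, limma adjusted p = 0.0461). The gene had a single probe set. The direction was the same in all 18 alternative settings, from 0.59 without control 1 to 0.91 without control 3, but the call was kept in 7 of them. Of the rescalings, median centring kept it (adjusted p = 0.0359), while it was lost on the hybridisation controls (0.0914), by quantiles (0.101) and by cyclic loess (0.104). So did dropping the filter (0.0749), averaging probe sets (0.0533) and a variance model with no trend (0.141). It was also lost without knockout 3 (0.117), knockout 4 (0.0981), knockout 5 (0.137), control 1 (0.0578) or control 2 (0.0884).

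Manf and Creld2, which encode secretory-pathway proteins induced by unfolded protein, had the next largest differences above the controls. Manf signals were 15669, 15106 and 16545 in the knockouts and 10687, 14413 and 13645 in the controls, a log2 difference of 0.30 (adjusted p = 0.291), or 0.17 without control 1. Creld2 signals were 10537, 10990.2 and 10233 against 7804, 10239 and 9076, a difference of 0.24 (adjusted p = 0.365), or 0.13 without control 1. In both genes control 1 was the lowest array, and for Creld2 control 2 lay just above knockout 5.

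The main ER chaperones were bright and varied little. Hspa5, which encodes BiP, had signals of 27273, 26505.5 and 24476.5 in the knockouts and 23139, 24577 and 22228 in the controls. Its log2 difference was 0.16, with a 95% interval of -0.05 to 0.37 (adjusted p = 0.453), and knockout 5 lay below control 2. Hsp90b1, which encodes GRP94, had 27099.8, 24533 and 26203 against 23621, 23192 and 24529, a difference of 0.12 (adjusted p = 0.551), with knockout 4 and control 3 almost equal. For the lectin chaperones, Calr differed by 0.18 and Canx by 0.13 (adjusted p = 0.432 and 0.559), and the groups overlapped in both. P4hb, the disulfide isomerase that is also a subunit of prolyl hydroxylase, had 27039, 24593 and 23303 against 23083, 21796.5 and 21364.5, a difference of 0.18 (adjusted p = 0.426). The groups of P4hb did not overlap, a gap set by knockout 5 and control 1. After scaling on the hybridisation controls Hsp90b1 and Canx were at -0.04 each and Hspa5 at 0.00, while Calr and P4hb were never below 0.01 in any setting.

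Other ER folding genes lay on both sides of the controls. Pdia4, a disulfide isomerase, had signals of 2136, 2069 and 2230.0 in the knockouts and 2707, 2863.5 and 2599 in the controls. Every knockout was below every control, at -0.34 on the log2 scale (standard error 0.09), which did not pass (adjusted p = 0.107). Its dimmer probe set differed the other way, at 163.5, 216 and 196 against 136, 130.2 and 154, or 0.41 (adjusted p = 0.391 over all probe sets), so the direction of the gene differs between its probe sets. Dnajb11, a BiP co-chaperone, had 3672.5, 3659.5 and 3413 against 3745, 3995 and 3987, a difference of -0.13 (adjusted p = 0.536). Dnajc3, a co-chaperone known as an inhibitor of the kinase PERK, differed by -0.20 in its brightest probe set (adjusted p = 0.396) and by 0.34, 0.01, -0.33 and -0.27 in the others. Sdf2l1, part of a BiP complex, differed by 0.15 with a wide interval, from -0.27 to 0.56, and its signals ran from 2318 in control 1 to 3832 in knockout 5. The other 4, Pdia3, Pdia6, Hspa13 and Hyou1, lay between -0.09 and 0.05.

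The promoters of these genes hold the sequences by which the unfolded protein response is known to act, shown here because this response is the known route to the ER folding genes. RefSeq start sites of build GRCm38.p6 were matched by symbol for 27 of the 36 members. The window ran from 250 bases before to 50 after the start. The ER stress response element, CCAAT and CCACG with any 9 bases between them on either strand, was found in 0.119% of all 32851 such windows. It occurred in 7 of the 13 ER folding genes with a window, against 0.137% of all 27025 genes with a window. The element was picked as one known to act on ER folding genes, so this share describes them and is not a test. None of the 7 cytosolic, 2 mitochondrial and 5 ERAD and sensor genes held the element. Each stretch of 43 bases below reads 5′ to 3′ on the strand of its gene, with the fixed letters of the element in capitals. Hsp90b1 held the element at 2 places.
Hsp90b1, chr10:86705626-86705668, minus strand: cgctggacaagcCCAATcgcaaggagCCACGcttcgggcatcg
Hsp90b1, chr10:86705521-86705563, minus strand: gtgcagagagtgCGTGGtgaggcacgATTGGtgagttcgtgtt
Hspa5, chr2:34772013-34772055, plus strand: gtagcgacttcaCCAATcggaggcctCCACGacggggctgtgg
Dnajc3, chr14:118937815-118937857, plus strand: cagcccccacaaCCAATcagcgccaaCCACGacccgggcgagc
Calr, chr8:84847063-84847105, minus strand: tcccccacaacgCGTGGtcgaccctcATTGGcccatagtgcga
Canx, chr11:50325788-50325830, minus strand: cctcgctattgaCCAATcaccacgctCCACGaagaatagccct
Pdia6, chr12:17266479-17266521, plus strand: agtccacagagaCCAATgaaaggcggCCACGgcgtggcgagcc
Creld2, chr15:88819508-88819550, plus strand: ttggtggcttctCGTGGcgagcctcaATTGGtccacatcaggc

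None of the 7 genes with this element passed the test, and their log2 differences ran from -0.20 for Dnajc3 to 0.24 for Creld2. The shorter second form has ATTGG and CCACG with any 1 base between them on either strand. It was found in 0.0365% of windows and in 0.0444% of genes with a window. Among the members it was in Dnajb11 and Herpud1, which differed by -0.13 and 0.24. The stretch from Herpud1 reads on the strand of the gene, with the fixed letters in capitals.
Herpud1, chr8:94386361-94386403, plus strand: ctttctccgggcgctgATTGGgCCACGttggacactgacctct

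The window of Dnajb9, the member that rose, held none of the 5 motifs searched. Only exact matches to a whole motif were counted, so partial or variant forms would be missed. The 150 bases before the Dnajb9 start site are given so that a reader can inspect them.
Dnajb9, chr12:44210069-44210218, minus strand: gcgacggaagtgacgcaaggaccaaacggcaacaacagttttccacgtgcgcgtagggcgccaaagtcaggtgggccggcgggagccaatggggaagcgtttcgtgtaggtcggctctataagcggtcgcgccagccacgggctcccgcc

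None of the 27 members with a window held the unfolded protein response element TGACGTGG (0.676% of windows, 0.714% of genes). The core of the antioxidant response element, TGACNNNGC on either strand, which NRF2 is known to bind, occurred in 7 of the 27 members, namely Hsph1, Dnajb1, Calr, Pdia3, Sdf2l1, Herpud1 and Ern1. It was found in 12.4% of all windows and in 14% of all genes with a window. None of the 7 passed the test, and they differed by -0.04 to 0.44.

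**Figure D3:**
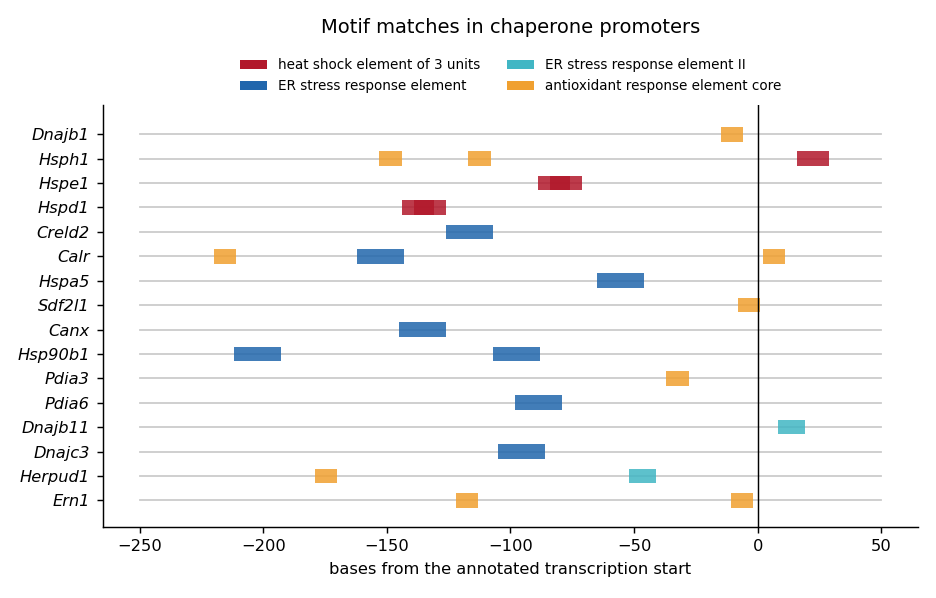
Position of motif matches, in bases from the annotated transcription start (x axis), in 1 promoter window of each chaperone gene that holds a match; bars span the letters of the motif and a vertical line marks the start. ER stress response elements sit before the start of 7 ER folding genes. Heat shock elements sit before the start of Hspe1 and Hspd1 and after that of Hsph1.

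Among the genes of ERAD and of the unfolded protein sensors, 6 of 6 did not pass the test. Edem1, a lectin that directs misfolded glycoproteins to degradation, had signals of 5991, 4523 and 4243 in the knockouts and 3998.5, 3637 and 3952 in the controls. All knockouts were above all controls, with knockout 3 well above the others, and the log2 difference was 0.33 (adjusted p = 0.280), or 0.18 without knockout 3. Herpud1, a membrane protein of the degradation complex, had 12582, 10383 and 12609.7 against 11456, 9599 and 9042, a difference of 0.24 (adjusted p = 0.397), with knockout 4 below control 1. Xbp1, the transcription factor spliced by IRE1, had 16104.5, 14272 and 16560 against 14793, 15468 and 15877, a difference of 0.02 with an interval of -0.19 to 0.24. Its spliced and unspliced transcripts were not told apart here. Ern1, which encodes IRE1, differed by -0.04, and Sel1l, the partner of the HRD1 ligase, by -0.08. Atf6 had 997, 1184 and 954 against 1180.5, 1435 and 951, a difference of -0.17 (adjusted p = 0.672) that was 0.04 in the mean over its probe sets. For Ern1 and Xbp1 a dimmer probe set stood lower in every knockout than in any control, at -0.49 and -0.48 (adjusted p = 0.287 and 0.202 over all probe sets).

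Of the 9 cytosolic genes measured, none rose or fell. Dnajb1, which encodes the J-domain protein HSP40, had signals of 2575, 2241 and 1640.1 in the knockouts and 1277, 1883 and 1559 in the controls, a log2 difference of 0.44 (adjusted p = 0.312). Hsph1, a nucleotide exchange factor of HSP70, had 5130, 4879 and 3911 against 2136, 4986 and 3908, a difference of 0.41 (adjusted p = 0.522). Hspa8, the constitutive cytosolic HSP70, had 28055, 23464 and 22295 against 14990.1, 22906 and 19389.6, a difference of 0.38 (adjusted p = 0.303). In all 3 control 1 was the lowest array and control 2 lay above at least 1 knockout. Dnaja1, another J-domain partner of HSP70, repeated that order, with 13547, 14693 and 11133 against 9076, 13067 and 9742, a difference of 0.31 (adjusted p = 0.392).

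Control 1 was low in many of these genes. It was the lowest array in 15 of the 34 members, 7 of them cytosolic, 3 mitochondrial and 5 of ER folding, whereas it was the lowest in 18.8% of all genes tested. Without it the differences were 0.30 for Dnajb1, 0.06 for Hsph1, 0.22 for Hspa8 and 0.21 for Dnaja1, and the cytosolic median was 0.07 in place of 0.19. Leaving out the lowest control makes any such difference smaller. Knockout 3 was the highest array in 11 of the 34 members and knockout 4 in 8, against 13.7% and 13.8% of all genes tested. Without knockout 3 the differences of the same genes, in that order, were 0.30, 0.33, 0.28 and 0.29, and the cytosolic median was 0.21. Among the 3 controls the highest signal of Hsph1 was 2.33 times the lowest, the widest ratio of any member. The median of this ratio was 1.31 over the cytosolic and 1.15 over the ER folding genes, against 1.29 over all genes tested.

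Of the small heat shock protein genes, Hspb1 lay on the lower side and Hspb8 differed little. Hspb1, which encodes an ATP-independent chaperone, had signals of 2938, 1956 and 3801 in the knockouts and 3841, 3292 and 4228.5 in the controls, a log2 difference of -0.43 (adjusted p = 0.396), or -0.17 without knockout 4. Its second probe set had 2130.1, 1701 and 2212 against 3004.5, 3133 and 3823. In that probe set every knockout was below every control, and it passed the test over all probe sets (log2 difference -0.72, standard error 0.14, adjusted p = 0.0392, where 1.52% of 27022 probe sets passed). It was 1 of 2 among the 88 tested probe sets of the members to do so, the other being that of Dnajb9. Its name ends in _x_at, which marks probes that can match several transcripts. Hspb8 differed by 0.03 and Dnajb4 by -0.01. Hspa4, an HSP110-type exchange factor, had 2708, 2843 and 2777 against 2324, 2412 and 2565, a difference of 0.19 (adjusted p = 0.353) without overlap between the groups, while its 2 other tested probe sets differed by -0.12 and -0.08. Hsp90aa1, the inducible cytosolic HSP90, differed by 0.12 with an interval of -0.11 to 0.35.

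**Figure D4:**
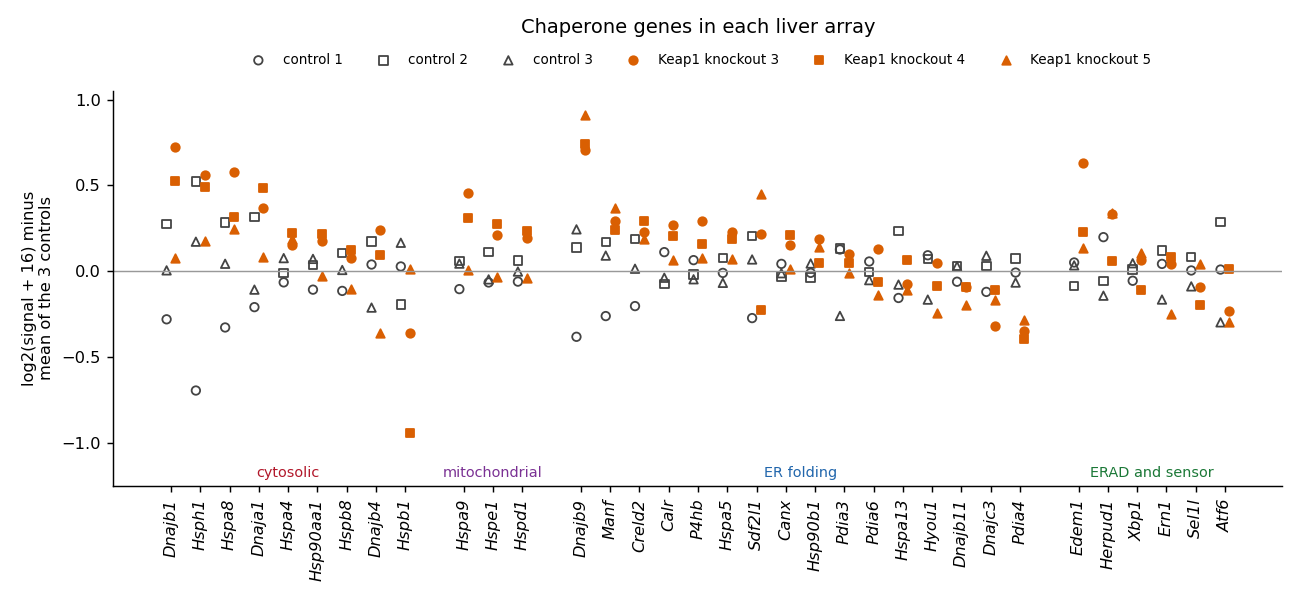
Log2(signal + 16) of each measured chaperone gene relative to the mean of its 3 controls (y axis), in each of the 6 arrays; open symbols are controls and filled symbols knockouts, and genes are ordered within compartments by their difference. The 3 knockouts lie above the 3 controls in Dnajb9, and control 1 is the lowest array in Hsph1, Hspa8 and Dnajb1.

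Of the 3 mitochondrial chaperones none passed the test. Hspa9, the matrix HSP70 known as mortalin, had signals of 10778, 9735.5 and 7888 in the knockouts and 7312, 8192 and 8106.5 in the controls, a log2 difference of 0.26 (adjusted p = 0.378), or 0.16 without knockout 3. Hspd1 and Hspe1, the subunits of the matrix folding chamber HSP60 and HSP10, differed by 0.13 and 0.15 (adjusted p = 0.591 and 0.559). Hspd1 had 18511.5, 19024 and 15709.9 against 15489.8, 16865 and 16132, and Hspe1 had 12377, 12933 and 10451 against 10218, 11566 and 10346. The order of the 6 arrays differed little between them, with knockouts 4 and 3 highest, control 1 lowest and knockout 5 inside the range of the controls. The genes are transcribed away from each other from a shared promoter region, which holds a heat shock element, shown here because it lies between both start sites.
Hspe1 and Hspd1, chr1:55088039-55088096, strand of Hspe1: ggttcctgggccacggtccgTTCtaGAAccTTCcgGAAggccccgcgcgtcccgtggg
Hsph1, chr5:149636280-149636308, minus strand: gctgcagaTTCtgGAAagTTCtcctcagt

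The capitals mark the units of the heat shock element, searched on both strands as GAA, TTC and GAA with any 2 bases between neighbours. In the shared promoter 2 overlapping matches make a run of alternating units. The motif occurred in 0.603% of all windows and in 0.662% of genes with a window. Among the members it lay before the start site in Hspd1 and Hspe1 and after it in Hsph1. It occurred in none of the 13 ER folding genes. The windows of Dnaja1, Dnajb1 and Hspb1 held no match of 3 units, and no window was used for Hspa8 or Hsp90aa1.

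Probe sets of the same gene often differed in direction. Of the 27 members with more than 1 tested probe set, all probe sets lay on the same side of zero in 13, which included Hspa8, Hsph1, Dnaja1, Dnajb1, Hspb1, Hspa5, Hsp90b1, Calr, Herpud1 and Edem1. They lay on both sides in 14, which included Pdia4, Dnajc3, Hspa4, Canx, Xbp1 and Atf6. All 4 probe sets of Hspa8 lay between 0.19 and 0.47, and those of Hsph1 at 0.40 and 0.41. The names of the brightest Hspa8 probe set, at 0.38, and of the one at 0.47 end in _x_at. Without _x_at and _s_at probe sets Hspa8 was also at 0.38. A further probe set of Hsp90b1 was at 0.27, with all knockouts above all controls.

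**Figure D5:**
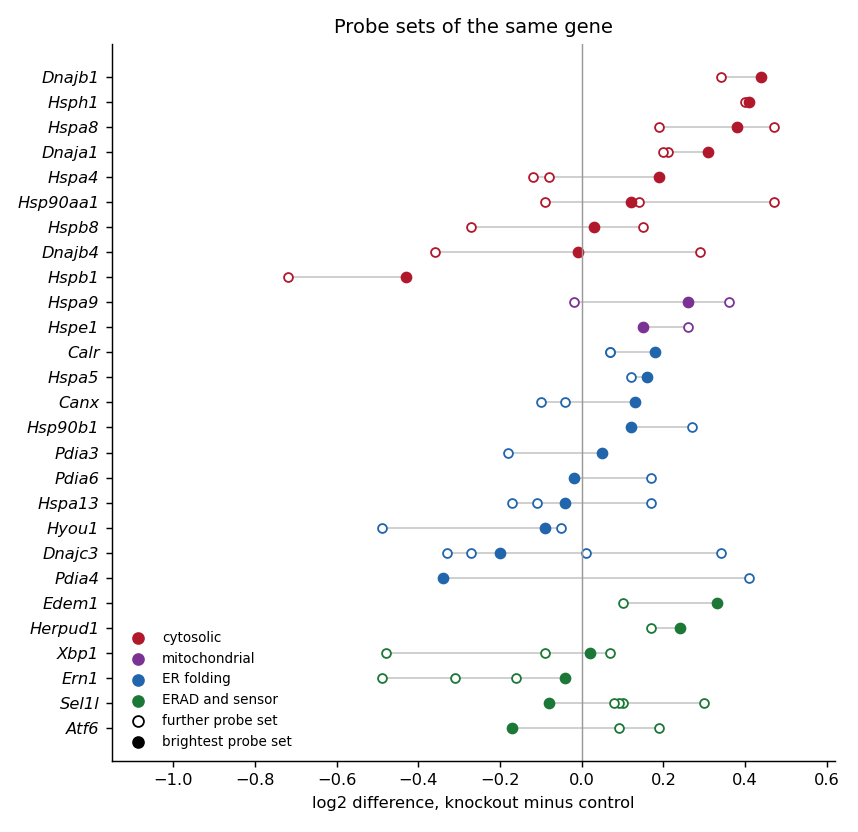
Log2 difference (knockout minus control, x axis) of every tested probe set of the 27 chaperone genes that had more than 1; filled points are the brightest probe set of each gene and open points the others. The 2 probe sets of Pdia4 lie at -0.34 and 0.41, and those of Hspb1 at -0.43 and -0.72.

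Other genes of the same pathways were listed by function. Of 84 tested out of 92 listed, 0 rose and 0 fell in limma, where 1.98% of all genes passed. An unadjusted p under 0.05 was found in 11, or 13.1%, against 15.2% of all genes, and the groups did not overlap in 23, or 27.4%, against 21.3%. Their median log2 difference was 0.05. Among 28 further cytosolic chaperones the extremes were Hspa1b, the stress-induced HSP70, at 0.86 (adjusted p = 0.368) and the HSP70-like Hspa14 at -0.50 (adjusted p = 0.0947). Hspa1b signals were 3825, 3110 and 2979 in the knockouts and 863, 3577 and 1876 in the controls, so that control 1 was again the lowest and control 2 lay inside the range of the knockouts. Hspa1b shares most of its sequence with Hspa1a, so the reading of either gene is uncertain. Among 9 further mitochondrial genes the extremes were the proteases' subunit Afg3l2 at 0.35 and the import factor Timm44 at -0.23 (adjusted p = 0.129 and 0.276). Among 26 further ER folding genes they were the disulfide reductase Txndc11 at 0.50 (adjusted p = 0.0788) and the collagen chaperone Serpinh1 at -0.31 (adjusted p = 0.405). Among 21 further ERAD and sensor genes they were the transcription factors Creb3l2 at 0.44 and Creb3l3 at -0.15 (adjusted p = 0.390 and 0.521).

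No marker of another cell type passed the test. Plasma cells, which are rich in ER chaperones, had a summed signal over 6 markers of 23309 to 24663 in the knockouts and 23473 to 26044 in the controls, most of it from Xbp1 and Sdc1, which hepatocytes also express. Their defining gene Jchain had 57.1 to 96.8 against 98.6 to 202.1, lower in every knockout than in any control (adjusted p = 0.288), while Mzb1, Derl3 and Xbp1 were at 0.15, 0.15 and 0.02, and Tnfrsf17 was under the filter. The sum over 12 Kupffer cell and leukocyte markers was 12435 to 16004 against 9360 to 15589. Within that list the macrophage receptor gene Marco had 387.3 to 769.6 against 98.6 to 298.4, higher in every knockout (log2 difference 1.40, adjusted p = 0.111), and Cd5l was at 0.51 (adjusted p = 0.293), while 5 of the 10 tested were below the controls. The sum over 9 stellate and endothelial markers was 5804 to 6748 against 6527 to 7709, and those of cholangiocytes and erythroid cells were 252 to 500.0 against 294 to 1287 and 693 to 2210.0 against 1876 to 2355. The hepatocyte markers did not pass either. Of the 9 cold-induced and clock genes tested none passed, with 4 above the controls and 5 below. The groups did not overlap in 2, or 22.2%, against 21.3% of all genes. These were Ciart at 2.01, with 19.7 in control 3, and Per1 at 0.51 (limma adjusted p = 0.264 and 0.312). All 7 immediate early genes, which respond to handling and stress, were below the controls. Of the 7, Jun fell (log2 difference -1.36, limma adjusted p = 0.0433) and none rose. The share past the threshold was 14.3%, against 1.98% of all genes, and the summed signal was 1455 to 1643 against 2054 to 3164. The part of these cell types, of the clock genes and of the immediate early genes in the chaperone values was not tested. The ratio of 3′ to 5′ actin signal, a sign of RNA quality, was 1.54 to 1.90 over the 6 arrays.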

How the data were processed

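The authors deposited an intensity on a linear scale for every probe set, measured from biotin-labelled cRNA per the labels' protocols. How probes were summarised is not stated in the labels used here. After trimming 2% of probe sets at either end, every array had a mean of 500.0, so the authors had scaled the arrays to a common target, and a change in total RNA per cell would not be seen. From these, log2(signal + 16) was computed, and fold changes on that scale understate the change of dim genes. Of 45101 probe sets, 64 were controls, 34945 had 1 gene symbol, 932 several and 9160 none in the platform annotation.

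Probe sets with a mean log2 value at or above the 40th percentile were kept (27022), and each gene was read from its brightest, which gave 13027 genes. The test was two-sided, from limma 3.58.1 under R 4.3.3, using lmFit and then eBayes with trend. Its p-values were adjusted over all genes (Benjamini-Hochberg, threshold 0.05). "Rose" and "fell" are used only past it. Probe sets were also tested over all 27022. Precision is limited by the number of arrays. Each array was 1 mouse, per the labels.

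Per-array values are given for members past the threshold, those whose groups do not overlap, and the largest and smallest difference of each compartment. Values of further members were added for their role after the results were seen. The members and lists were chosen with earlier results of these data known. Alternatives changed the filter, offset, scaling, variance model and probe set rule and left out each array. The steps were tested on simulated arrays. Promoters were searched with Python 3.11.15 in RefSeq windows.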

Additional observations from a re-analysis of the deposited data

How the results depend on the processing

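Of 612 values of members under other settings, 551 kept their direction and side of the threshold, 11 lost the call (all of Dnajb9), none gained one and 50 changed sign. In 15 members the sign was the same in every setting, and 33 members were past the threshold in none. No paired analysis was possible because the groups share only the number 3 in the labels.

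The count of genes past the threshold was 77 without the variance trend and 94 to 173 without 1 array (94, 173 and 133 without knockouts 3, 4 and 5, 121, 133 and 169 without controls 1, 2 and 3). The split was 135 higher and 123 lower, but 85 and 275 with hybridisation control scaling, 137 and 74 with median centring, and 49 and 28 without the trend. The count of members was 0 without the filter, after quantile, cyclic loess and hybridisation control scaling, without the trend and in the mean over probe sets, and 0 to 1 without 1 array. The median of all genes was -0.18 after hybridisation control scaling and 0.08 after median centring, and 23 members above the controls became 17 after quantile, 19 after cyclic loess, 13 after hybridisation control scaling and 29 after median centring.

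The ER folding median was -0.02 after quantile, 0.22 after median centring, 0.01 after cyclic loess and -0.04 after hybridisation control scaling. The ERAD and sensor median was -0.08, 0.09, -0.08 and -0.17 there and 0.07 in the mean over probe sets. The cytosolic median was 0.02 and the mitochondrial -0.01 after hybridisation control scaling, and without 1 array the cytosolic ran from 0.07 to 0.23.

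Signs changed as follows, all without a call. After cyclic loess Pdia3 was -0.05, Xbp1 -0.08, and Hsp90b1 and Hspb8 0.00. After quantile normalization Hsp90aa1 and Hspb8 were -0.01, Hsp90b1 -0.05, Pdia3 -0.06, Xbp1 -0.08 and Hspa5 0.00. After median centring Hyou1 was 0.00, Sel1l 0.01, Ern1 0.05, Hspa13 0.06, Pdia6 0.07 and Dnajb4 0.09. After hybridisation control scaling Hspe1 was -0.01, Sdf2l1 -0.02, Hspd1 -0.03, Canx, Hsp90aa1 and Hsp90b1 -0.04, Pdia3 -0.12, Hspb8 -0.13, Xbp1 -0.14 and Hspa5 0.00. In the mean over probe sets Hspa4 was -0.01, Hspb8 -0.03, Pdia3 -0.06, Xbp1 -0.12, Canx 0.00, Pdia4 0.03, Atf6 0.04, Pdia6 0.07 and Sel1l 0.10, and without _x_at and _s_at probe sets Canx was -0.04. Without 1 array the range was -0.02 to 0.09 for Xbp1, -0.02 to 0.10 for Hspb8, -0.10 to 0.03 for Pdia6, -0.13 to 0.17 for Dnajb4, -0.12 to 0.06 for Ern1, -0.12 to 0.08 for Hspa13, -0.08 to 0.11 for Pdia3 and -0.01 to 0.33 for Sdf2l1. The cause of these changes was not tested.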
